A study of Mus musculus with 6 samples.

Results

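The effect of macrophage colony-stimulating factor (MCSF, also called CSF1) on chromatin accessibility in the presence of IL-4 was examined by setting 1 ATAC-seq library of macrophages given MCSF with IL-4 against 1 library given IL-4 alone. ATAC-seq uses a transposase that cuts DNA where it is not covered by nucleosomes, so the reads over a site measure how accessible that site was. The comparison covers 33476 of the 578591 accessible sites of the series: all sites on the 19 autosomes with a mean signal of at least 3.2 over the 6 libraries, where signal is the read count of a site per 1000000 reads of the scaled library size (RPM). The rule uses a mean over all libraries and not the MCSF ratio. The sites nearest to this limit had a mean signal of 3.20001 on the inside and 3.19999 on the outside.

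All 6 libraries came from bone marrow-derived macrophages (BMDMs) of wild-type mice, given as C57BL/6 in the strain label and as C57BL/6J in the growth protocol, with 1 library in each group. The groups were Untreated, IL-4, MCSF + IL-4, DMSO (the vehicle alone), DMSO + IL-4 and LatA + IL-4. The libraries of MCSF + IL-4 and LatA + IL-4 are also called the MCSF library and the LatA library below, and both had IL-4. IL-4 was used at 20 ng/ml for 24 hours, MCSF at 100 ng/ml, and latrunculin A (LatA), a drug that blocks actin polymerization, at 1 µM. The labels give no time for MCSF or LatA. The MCSF + IL-4 library is not labelled with DMSO, so IL-4 is its control, and LatA + IL-4 was set against DMSO + IL-4. The cells of every group had been grown from marrow in medium with supernatant of L929 cells, which is itself a source of MCSF, so the IL-4 cells were not naive to it. Sites are given by their position in the mm9 build, counted from 1, with no gene names, since no mm9 annotation was used here. For that reason macrophage marker loci were not checked.

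MCSF binds the receptor tyrosine kinase CSF1R and supports the survival, proliferation and differentiation of macrophages. IL-4 acts through its own receptor and the transcription factor STAT6 to induce the alternative activation program, which includes genes of tissue repair. Accessible sites mark promoters and enhancers, and narrow sites with many reads per base are typical of them, whereas wide stretches with few reads per base often lie closer to the background of the assay.

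Reads in sites ranged from 12387332 to 19889902 per library, with 15303644 in IL-4 and 13479282 in the MCSF library. A signal of 3.2 therefore stood for 39.9 to 66.8 reads in a library. With 1 library per group there are no replicates of MCSF + IL-4 or IL-4, so the ratios are given without a test between replicate cultures, and their intervals cover counting error only. A count model that takes its spread from all 6 libraries is given further on. Intervals of medians cover the spread over sites, which are not replicates. The libraries differed in how their reads were spread. Sites averaging 1000 normalized reads or more held 31.0% of reads in IL-4 and 24.3% in the MCSF library, and the selected sites held 30.3% and 37.8% of the remaining reads. That share was also high in the LatA library, at 39.4%, and lay between 28.4% and 32.5% in the other 3 libraries. Its part in the ratios was not tested.

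Most of the selected sites had more signal with MCSF. Before any correction, 80.5% of sites had a log2 ratio of MCSF + IL-4 against IL-4 above 0, and the median was 0.56. The ratio depended on the strength of the site. The median was 0.45 (95% interval of the median 0.43 to 0.46) for the 15311 sites with a signal of 3.2 to 5, 0.62 (0.61 to 0.63) for 9376 sites between 5 and 8, 0.62 (0.61 to 0.63) for 6670 sites between 8 and 16, and 0.48 (0.47 to 0.50) for the 2119 strongest. A similar curve was seen with LatA against its vehicle, with medians of 0.47, 0.61, 0.59 and 0.45 in the same classes. The vehicle pairs gave lower curves. DMSO against Untreated had medians of 0.28 to 0.37, and DMSO + IL-4 against IL-4, a pair that differs only in vehicle, had 0.09 to 0.14.

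**Figure D1:**
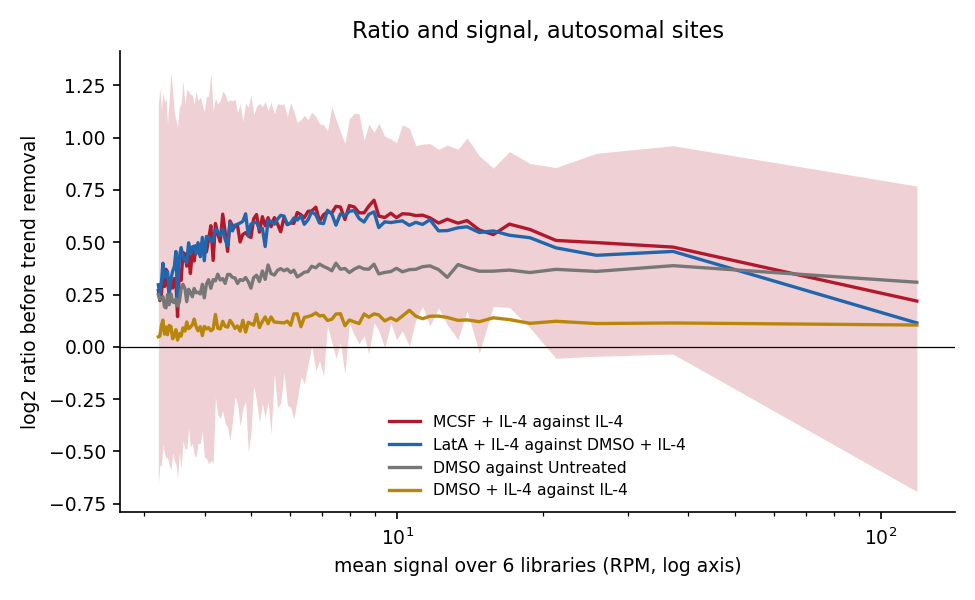
Median log2 ratio before trend removal (y axis) against the mean signal over 6 libraries in RPM (x axis, log scale), in 100 bins of equal size, for 4 pairs of libraries, with the 10th to 90th percentile of sites shaded for MCSF + IL-4 against IL-4. The MCSF and LatA curves run together, peak at 0.70 and 0.65 at a signal of 8.96 and 7.18, and decline at stronger sites, and the curve of DMSO + IL-4 against IL-4 stays between 0.03 and 0.17.

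This common shift was taken out by subtracting the median ratio of sites of like strength, which ranged from 0.14 to 0.70. What follows is relative to it, so that "higher" and "lower" mean more or less signal than sites of the same strength had in that pair. By this measure 3483 sites (10.4%) were higher by 1.5-fold with MCSF and 5497 (16.4%) were lower. The vehicle pair DMSO + IL-4 against IL-4 passed the same threshold at 1260 sites (3.76%) in the higher and 1594 (4.76%) in the lower direction. DMSO against Untreated passed it at 1243 (3.71%) and 2017 (6.03%). The numbers with MCSF were thus 2.76 and 3.45 times those of DMSO + IL-4 against IL-4, and close to those with LatA, 2890 (8.63%) and 5030 (15%). With the trend kept, the split with MCSF turned to 15866 higher and 1676 lower sites.

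**Figure D2:**
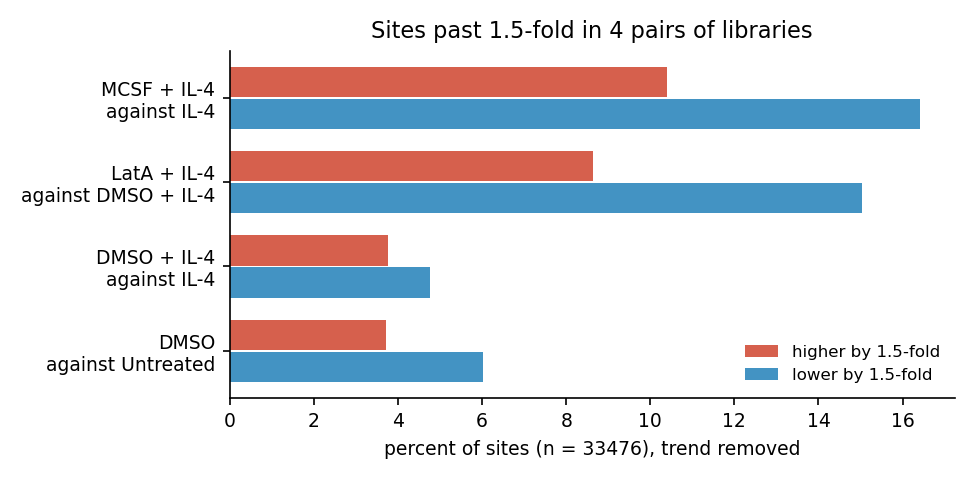
Percent of the 33476 sites (x axis) that were higher or lower by 1.5-fold after trend removal, in 4 pairs of libraries with 1 library per group. MCSF + IL-4 and LatA + IL-4 have 8.63% to 16.4% of sites past the threshold in each direction, and the vehicle pairs 3.71% to 6.03%.

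The sites called higher had a low signal in IL-4, the denominator of the ratio that chose them. Their median signal was 2.80 in IL-4 and 6.98 in the MCSF library, with 2.59 in Untreated, 3.38 in DMSO, 3.53 in DMSO + IL-4 and 5.60 in the LatA library. The sites called lower had a median of 5.15 in IL-4 and 3.72 in the MCSF library, and 4.46 to 4.81 in the other 4 libraries. Sites within 1.5-fold, which make up the rest, moved from 4.83 to 7.51. A call of lower is thus relative to this general increase, and of the 5497 sites, 1676 (30.5%) were also lower by 1.5-fold before the trend was removed. Differences of 2-fold were seen at 831 higher and 2039 lower sites, and 4-fold differences at 61 and 122. DMSO + IL-4 against IL-4 gave 330 and 476 at 2-fold, and 57 and 77 at 4-fold. At 4-fold, DMSO against Untreated gave 45 and 66, and LatA against its vehicle 76 and 177. The 61 higher sites at 4-fold with MCSF were thus close in number to the 57 of a vehicle pair.

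Calls were more frequent among sites with few reads. Among sites with a signal of 3.2 to 5, 16.5% were called higher and 21.1% lower, against 3.25% and 9.16% between 8 and 16. The whole 95% counting interval of the ratio lay past 1.5-fold at 598 higher (1.79%) and 1635 lower sites (4.88%). Among the 5886 strong sites, with a mean of 150 to 1000 normalized reads, 203 (3.45%) were higher and 465 (7.90%) were lower, and 69 and 221 of these had their whole interval past the threshold. A count model over all 6 libraries, with terms for vehicle, IL-4, LatA and MCSF, has 1 residual degree of freedom, which asks whether DMSO acted alike with and without IL-4. Measured against that spread between libraries, edgeR's quasi-likelihood test with Benjamini-Hochberg adjustment at 0.05 called 135 sites (0.403%) higher and 428 (1.28%) lower with MCSF.

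The sites called lower were wide. Their median width was 1041 bp, against 642 bp for the sites called higher and 745 bp for all selected sites. In sites of up to 500 bp, 14.2% were called higher and 12.3% lower, and the median log2 ratio was 0.06 (0.05 to 0.07, n = 6040). Sites above 500 and up to 750 bp had 0.07 (0.05 to 0.08, n = 10918), and those above 750 and up to 1000 bp had 0.03 (0.02 to 0.04, n = 7459). The median then decreased to -0.12 (-0.13 to -0.10, n = 6892) above 1000 and up to 1500 bp, and to -0.64 (-0.68 to -0.62, n = 2167) over 1500 bp, where 54.1% of sites were lower and 4.71% higher. The balance among narrower sites depended on the trend. Of the 24417 sites of up to 1000 bp, 3002 were higher and 2626 lower with the trend of all selected sites, and this turned to 1919 and 3253 with the trend fitted on these sites alone. In the widest class the other pairs were also below 0, by -0.69 with LatA, -0.30 in DMSO against Untreated and -0.12 in DMSO + IL-4 against IL-4. The median signal of these sites was 5.59 in IL-4 and 5.08 in the MCSF library, so as a class they were close to level between the libraries while the sites of up to 500 bp moved from 3.88 to 5.92.

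**Figure D3:**
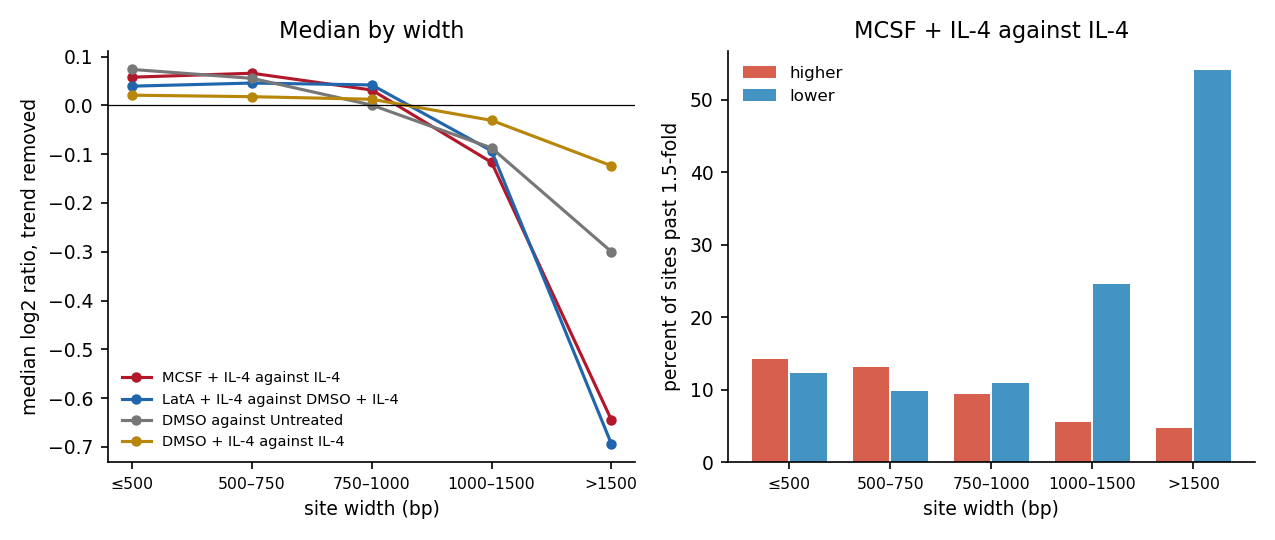
Left, median log2 ratio after trend removal (y axis) by site width in bp (x axis) for 4 pairs of libraries. Right, percent of sites past 1.5-fold in MCSF + IL-4 against IL-4 in the same width classes, where the share called lower goes from 12.3% in sites of up to 500 bp to 54.1% over 1500 bp.

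Signal density gave the same division. In the quintile of sites with the fewest reads per base, 1.62 to 4.78 signal per kb with a median width of 1222 bp, the median log2 ratio was -0.47 (-0.48 to -0.45, n = 6696), 42.0% of sites were lower and 9.32% were higher. In the next quintile, up to 6.96 signal per kb, it was 0.15 (0.14 to 0.17, n = 6695), with 17.8% higher and 11.9% lower. The denser quintiles had medians of 0.10, 0.05 and -0.04. LatA against its vehicle gave -0.48, 0.14, 0.09, 0.04 and -0.04 over the 5 quintiles. In the least dense quintile DMSO against Untreated gave -0.21 and DMSO + IL-4 against IL-4 gave -0.09. Before the trend was removed, the least dense quintile stood at -0.05 and the other 4 at 0.53 to 0.67 with MCSF. By this signal the low-density sites were thus level between the libraries, and the increase lay at the denser sites. The signal is a share of the scaled library size, so a level or an increase is relative to that scale. When the dependence on width was also removed, 3564 sites (10.6%) were higher and 4413 (13.2%) lower, and 2938 of the former and 3983 of the latter were among the first calls.

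Sites that stood alone in the genome were more often lower. The 793 sites with no other selected site within 200 kb had a median of -0.55 (-0.60 to -0.50), and 48.2% of them were lower and 3.03% higher. For the 6046 sites with a neighbour within 2 kb the median was 0.05 (0.04 to 0.06), with 13.6% lower and 12.0% higher. The isolated sites were also wider (1150 bp) and less dense (3.41 signal per kb) than the clustered ones (574 bp and 10.9 signal per kb). After removal of the width dependence their median was -0.32. Their median ratio with LatA was -0.54, close to that with MCSF. The vehicle pairs were also below 0 at these sites, at -0.20 in DMSO against Untreated and -0.09 in DMSO + IL-4 against IL-4.

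Because each group is 1 library, a ratio can come from either of its libraries. Against the other library with IL-4, DMSO + IL-4, 3377 sites (10.1%) were higher with MCSF and 4666 (13.9%) lower. Of the calls against IL-4, 1882 (54.0%) of the higher and 3457 (62.9%) of the lower sites were also called against DMSO + IL-4. The comparisons share the MCSF + IL-4 library, so their lists are not independent.

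The 6 libraries were also ranked at each site, after the median deviation of each library at sites of like strength had been subtracted. On this trend-removed scale MCSF + IL-4 was the highest library by a margin of 1.5-fold over the next at 968 sites (2.89%), of which 897 were among the sites called higher. The other libraries were the highest by this margin at 58 (DMSO) to 336 (Untreated) sites, and LatA + IL-4 at 223. The order depended on the scale. By signal with the trend kept, LatA + IL-4 was the highest by this margin at 2106 sites (6.29%), MCSF + IL-4 at 1467 (4.38%) and the other 4 at 42 to 68. The mean signal that selects the sites includes the library itself, which favours sites where 1 library is high over sites where it is low. With sites chosen for each library by the mean of the other 5 and the trend removed, MCSF + IL-4 was the highest by this margin at 727 of 32158 sites (2.26%) and the lowest at 586 (1.82%), and the other libraries were the highest at 42 to 315 sites. At the 968 sites the median signal was 1.87 in Untreated, 2.51 in DMSO, 3.37 in IL-4, 3.61 in DMSO + IL-4, 4.85 in the LatA library and 8.88 in the MCSF library. On the trend-removed scale the MCSF library was the lowest by 1.5-fold at 523 sites (1.56%), all of them among the sites called lower. LatA + IL-4 was so at 1069 (3.19%), whereas by signal these numbers were 205 (0.612%) and 358 (1.07%). The overlaps of 897 and 523 sites with the called sites are largely built in, since standing apart from all libraries includes standing apart from IL-4. The ranks within called sites, given next, are likewise tied to the choice of these sites by MCSF + IL-4 against IL-4. On the trend-removed scale MCSF + IL-4 was the highest library, by any margin, at 2527 (72.6%) of the sites called higher, while IL-4 was the lowest at 1374 (39.4%) of them. By signal it was the highest at 2436 (69.9%) and IL-4 the lowest at 1289 (37.0%). Of the sites called lower, MCSF + IL-4 was the lowest at 2475 (45.0%) and LatA + IL-4 at 2242 (40.8%) on the trend-removed scale, and at 1899 (34.5%) and 1471 (26.8%) by signal.

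The strong sites with the largest ratios had 24 reads or more in every library. The mean that makes a site strong includes the MCSF library, and without it 2 of the 5 highest would count as strong. The site highest with MCSF was chr13:94820763-94821158, a narrow site of 396 bp. Its signal was 3.88 in Untreated, 3.32 in DMSO, 3.88 in IL-4, 8.90 in DMSO + IL-4, 7.65 in the LatA library and 42.9 in the MCSF library. The MCSF + IL-4 library was therefore far above all others, by 7.13-fold over IL-4 after trend removal (interval 5.55 to 9.59), from 61 reads in IL-4 and 566 in the MCSF library. The fold enrichment of the peak called there, the pileup over the local background, was 15.0 in IL-4 and 30.5 in the MCSF library.

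At chr13:113220537-113222768, a site of 2232 bp, the signal was 5.75 in Untreated, 3.56 in DMSO, 8.01 in IL-4, 15.1 in DMSO + IL-4, 34.5 in the LatA library and 70.0 in the MCSF library, a 6.12-fold higher level (5.11 to 7.48) over IL-4. The fold enrichment of the peak there did not differ in this way, with 6.84 in IL-4 and 6.78 in the MCSF library. LatA + IL-4 was the second highest library at this site. At chr10:17796591-17797468 the signal was 3.02, 3.73, 3.88, 7.30 and 7.58 in Untreated, DMSO, IL-4, DMSO + IL-4 and LatA + IL-4, and 32.9 in the MCSF library (5.37-fold, 4.16 to 7.24). At this site, as at the first, the other 5 libraries lay far below MCSF + IL-4. Among them DMSO + IL-4 was above DMSO, with log2 ratios of 1.08 here and 1.54 at the first. IL-4 against Untreated gave 0.24 here and -0.09 at the first.

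At the other strong sites of this group a further library came near to MCSF + IL-4. At chr19:57421023-57423195 (4.46-fold, 3.36 to 6.26) the signal was 22.3 in the MCSF library, with 3.18 in IL-4 but 14.6 in DMSO and 16.5 in the LatA library. At chr9:114864737-114865603 (4.14-fold, 3.19 to 5.62) it was 24.7 in the MCSF library and 22.7 in the LatA library, with 3.88 to 8.20 in the other 4. With the dependence on width also removed, the log2 ratio of the sites chr13:113220537-113222768 and chr19:57421023-57423195 was larger, 3.41 in place of 2.61 and 2.95 in place of 2.16. By signal, MCSF + IL-4 was the highest library at all 5 sites, and stood 1.5-fold above the next at 3 of them. The mean of 150 normalized reads that defines a strong site includes the MCSF library, and without it 2 of the 5 sites (chr13:113220537-113222768 and chr9:114864737-114865603) would reach 150, of which the former stood 1.5-fold above the next. Against DMSO + IL-4 the log2 ratios of the 5 sites were smaller, 1.06 to 1.85, than the 2.05 to 2.83 found against IL-4.

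Of the strong sites lower with MCSF, the first was chr1:192123867-192127690, a wide site of 3824 bp. Its signal was 30.4 in Untreated, 26.1 in DMSO, 31.2 in IL-4, 21.2 in DMSO + IL-4, 21.4 in the LatA library and 8.57 in the MCSF library, which is 5.14-fold lower than IL-4 (4.20 to 6.39) after trend removal. With the dependence on width also removed its log2 ratio went from -2.36 to -1.53, the smallest of the 5 in place of the largest. The fold enrichment of the peak went the other way, with 7.09 in IL-4 and 7.89 in the MCSF library. At chr9:111880190-111880766 the signal was 10.8, 15.6, 8.27, 14.5 and 13.1 in the first 5 libraries in the same order and 2.66 in the MCSF library (4.74-fold lower, 3.29 to 7.21). At both sites the MCSF + IL-4 library lay below every other library by more than 1.5-fold.

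At chr5:11169894-11170523 MCSF and LatA differed. The signal was 39.1 in the LatA library and 4.48 in the MCSF library, with 13.5 in IL-4 and 5.77 to 11.1 in the other 3 libraries, and the site was 4.50-fold lower than IL-4 with MCSF (3.39 to 6.18). At chr1:63676243-63677593 both were low, with 4.03 in the LatA library and 4.48 in MCSF + IL-4 against 11.4 to 16.6 in the other 4 libraries. The narrow site chr6:43678849-43679035, of 187 bp, had 17.9 in Untreated, 11.1 in DMSO, 12.1 in IL-4, 9.62 in DMSO + IL-4, 5.53 in the LatA library and 4.32 in the MCSF library.

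**Figure D4:**
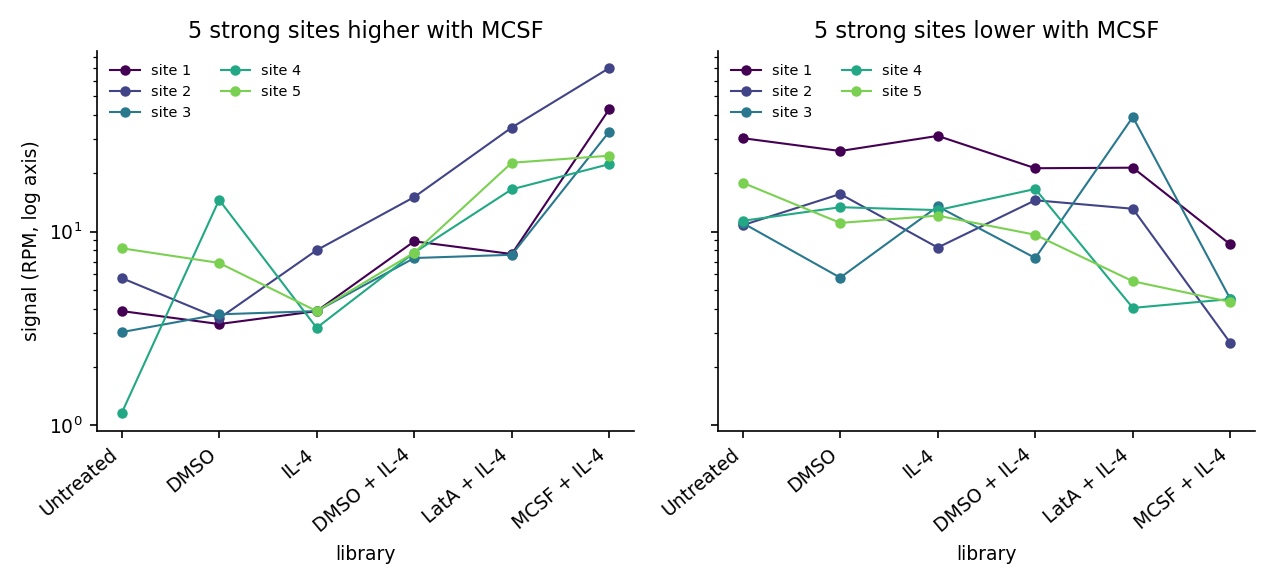
Signal in RPM (y axis, log scale) in each of the 6 libraries (x axis) at the 5 highest (left) and 5 lowest (right) strong sites, each point 1 library and each line joining the points of 1 site. On the left MCSF + IL-4 is the highest library at 5 of 5 sites, with 22.3 to 70.0, and on the right it is the lowest at 4 of 5 sites, with 2.66 to 8.57. Without the MCSF library in the mean, 2 of the 5 sites on the left would count as strong.

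Among all sites under 1000 normalized reads, the largest ratios came from sites with few or no reads in 1 of the libraries. The 10 highest had log2 ratios of 3.09 to 5.99, and at 8 of the 10 the IL-4 library was the lowest of the 6. The first, chr12:5512677-5513780, had no read in IL-4 but 118 in Untreated, 119 in DMSO, 71 in DMSO + IL-4, 127 in the LatA library and 81 in the MCSF library. Set against a floor of 3 reads in IL-4 it was 21.4-fold higher with MCSF, and the counting interval began at 17.0-fold. Yet against DMSO + IL-4 the log2 ratio of the site was -0.33. At this site the IL-4 library alone stood apart from the other 5. The site chr4:7161588-7162219 also turned direction, with 5 reads in IL-4, 80 in DMSO + IL-4 and 67 in the MCSF library, and a log2 ratio of -0.63 against DMSO + IL-4.

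Other sites of this list had MCSF + IL-4 at the top. At chr16:24480168-24481138 the reads were 31 in Untreated, 31 in DMSO, 2 in IL-4, 49 in DMSO + IL-4, 127 in the LatA library and 171 in the MCSF library, and the interval of the ratio ran from 19.1-fold to 583-fold. At chr4:10992234-10993200 they were 24, 85, 40, 60, 113 and 449 in the same order, which is 8.49-fold higher (6.28 to 12.3) than IL-4. This last site was the only 1 of the 10 at which all libraries had over 20 reads. By signal, MCSF + IL-4 was the highest library at 7 of the 10 sites, and by 1.5-fold over the next at 4. Without the MCSF library in the mean, 6 of the 10 would reach a signal of 3.2, and it was the highest library at 3 of these, by 1.5-fold at 1.

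The 10 lowest sites, with log2 ratios of -7.32 to -3.61, had MCSF + IL-4 as the lowest library at all 10, by 1.5-fold or more. Both lists were chosen by the ratio of the pair, which favours sites where the lower library of the pair has few reads. At chr5:135283142-135284477 the reads were 82 in Untreated, 50 in DMSO, 125 in IL-4, 41 in DMSO + IL-4, 47 in the LatA library and 0 in the MCSF library. With the floor of 3 reads this was 45.1-fold lower than IL-4, and the counting interval began at 36.1-fold. At chr1:193881141-193881831 the reads were 115, 193, 56, 71, 22 and 0 in the same order. This was 23.3-fold lower with the floor, and the counting interval began at 18.4-fold. LatA + IL-4 was also low at the latter site.

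At chr10:112675928-112676824 the reads were 68, 58, 101, 51, 40 and 2 in that order, at chr18:34399317-34400403 they were 64, 153, 123, 105, 101 and 11, and at chr15:37471221-37472523 they were 170, 132, 132, 85, 70 and 13. In each of these the 5 libraries without MCSF had at least 40 reads, and MCSF + IL-4 had 13 or fewer. Against DMSO + IL-4 the log2 ratio was below 0 at all 10 sites, between -6.94 and -1.58. That ratio shares the MCSF library, whose few reads at these sites led to their choice, so its direction is largely set. No peak was called in the MCSF library at 8 of the 10, and a peak was called in IL-4 at all 10.

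The ratios were not spread evenly over the genome. In 1 Mb windows with at least 10 selected sites (1408 windows), the median ratio of a window had an SD of 0.22 over windows with MCSF, 0.20 with LatA, 0.09 in DMSO + IL-4 against IL-4 and 0.10 in DMSO against Untreated. It was higher by 1.25-fold in 58 windows (4.12%) and lower in 108 (7.67%). The same windows gave 48 higher and 79 lower with LatA, 1 and 12 in DMSO against Untreated, and 3 and 2 in DMSO + IL-4 against IL-4. The balance of directions depended on the window, and in the 1381 windows of 500 kb with at least 10 sites it turned to 101 higher and 65 lower with MCSF and to 82 and 44 with LatA. Selected sites within 2 kb of each other had correlated ratios (Pearson r = 0.45 over 3351 pairs of sites of the same libraries), which was 0.52 with LatA and 0.04 and 0.21 in the vehicle pairs. These are descriptions over sites of 1 pair of libraries, which are not replicates.

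The 3 highest windows were chr7:152000001-153000000 (median 0.58 over 12 sites), chr12:74000001-75000000 (0.56, 19 sites) and chr13:21000001-22000000 (0.52, 29 sites). In the window of chromosome 13, 12 sites were higher and 2 lower. Its summed signal was 497 in Untreated, 668 in DMSO, 521 in IL-4, 568 in DMSO + IL-4, 721 in the LatA library and 1018 in the MCSF library. MCSF + IL-4 was thus well above the other 5 libraries here, and the median ratio with LatA was -0.12. A window near it, chr13:23000001-24000000, was the 13th highest, with a median of 0.42, and 19 of its 46 sites were higher. The window between them was not set apart, with a median of 0.11.

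Adjacent sites with the same call formed runs. There were 14 runs of at least 4 consecutive higher sites less than 50 kb apart, and the longest 2 held 7 sites each. At the first, chr13:21872038-21926088, the summed signal of its 7 sites was 244 in Untreated, 329 in DMSO, 246 in IL-4, 271 in DMSO + IL-4, 327 in the LatA library and 512 in the MCSF library. At the other, chr3:96231755-96293446, it was 32.9, 41.5, 38.7, 42.5, 71.7 and 101 in the same order. In both runs MCSF + IL-4 was the highest library, and in the former the ratio with LatA was below 0 (-0.12). Further runs on chromosome 13 were chr13:23662528-23678029, with 5 sites and a median of 0.66, and chr13:23844038-23854408, with 4 sites and a median of 0.69.

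Runs of lower sites were more common, 51 in all, and longer. They held 313 of the 5497 lower sites, and the runs of higher sites held 63 of the 3483 higher sites. More sites were called lower than higher, and runs were not counted in the other pairs of libraries. The longest held 40 sites at chr7:67002223-67049659, with a median ratio of -1.20 and a summed signal of 362 in Untreated, 291 in DMSO, 276 in IL-4, 278 in DMSO + IL-4, 158 in the LatA library and 175 in the MCSF library. These sites were narrow, 302 bp at the median. Their ratio was also below 0 with LatA (-1.43), in DMSO against Untreated (-0.64) and in DMSO + IL-4 against IL-4 (-0.18), so MCSF + IL-4 was 1 of 2 low libraries among 6. The same held for the lowest window, chr8:57000001-58000000, with a median of -1.25 over 23 sites with MCSF, -1.47 with LatA and -0.56 in DMSO against Untreated. The reads could align to up to 10 places in the genome, and how far repeated sequence took part in these runs was not tested.

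A run of another kind was chr17:21190093-21341013, where 14 sites of 663 bp at the median were lower. The summed signal was 73.1 in Untreated, 102 in DMSO, 105 in IL-4, 113 in DMSO + IL-4, 114 in the LatA library and 73.8 in the MCSF library. MCSF + IL-4 was thus at the level of Untreated and below the other 4 libraries. The median ratio over the run was -1.23 with MCSF and -0.56 with LatA, and 0.16 in DMSO against Untreated. At chr6:125317609-125367988, a run of 7 lower sites, the median was -0.90 with MCSF and 0.66 with LatA.

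**Figure D5:**
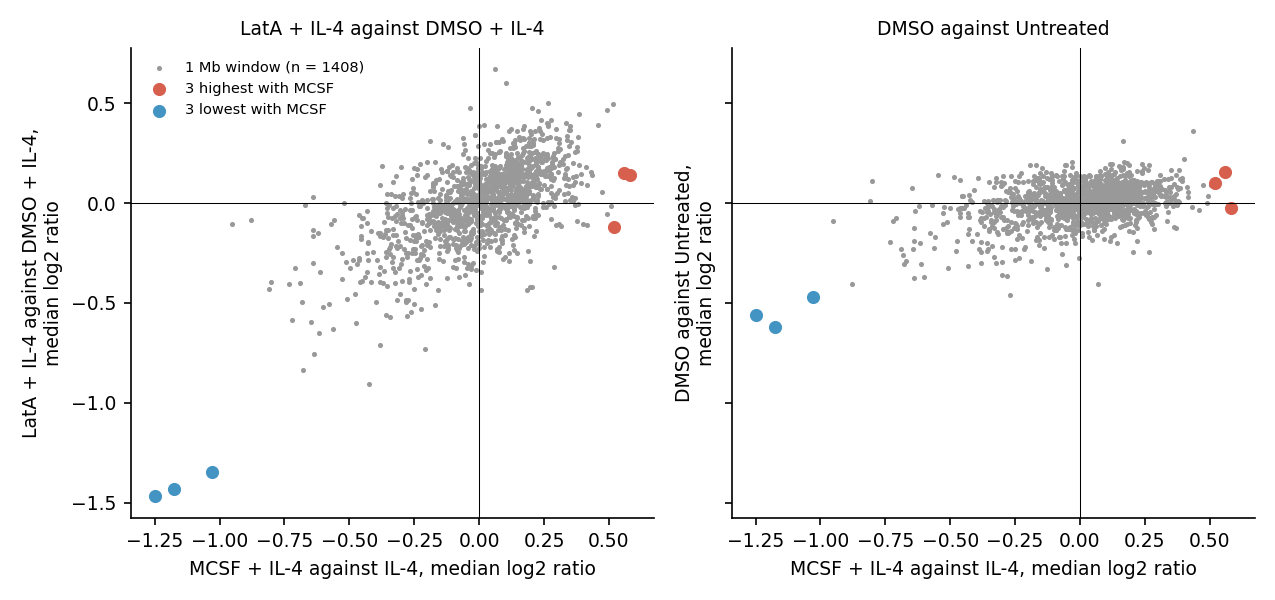
Median log2 ratio of MCSF + IL-4 against IL-4 (x axis) in each of 1408 windows of 1 Mb, against that of LatA + IL-4 over its vehicle, DMSO + IL-4 (y axis, left) and DMSO against Untreated (y axis, right), pairs that share no library with the x axis. The 3 lowest windows with MCSF (-1.25 to -1.03) are also low with LatA (-1.47 to -1.35) and in DMSO against Untreated (-0.62 to -0.47), and the 3 highest (0.52 to 0.58) lie between -0.12 and 0.15 with LatA.

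Sites that responded to IL-4 were next compared with those that did not. The response was taken from DMSO + IL-4 against DMSO, which shares no library with the MCSF comparison, and in which 4916 sites (14.7%) were higher and 3183 (9.51%) lower with IL-4. At the sites higher with IL-4 the median MCSF ratio was 0.08 (0.05 to 0.10), with 18.9% of sites higher and 14.9% lower with MCSF. The sites lower with IL-4 had 0.09 (0.07 to 0.12), with 14.7% higher and 16.1% lower. The 25377 other sites had -0.02 (-0.03 to -0.01), with 8.22% higher and 16.7% lower. Sites that differed with IL-4 in either direction were more often higher with MCSF than the rest, and the shares called lower lay between 14.9% and 16.7%. Signal and width differed between the classes as well, with medians of 4.92, 4.58 and 5.55 in signal and 648, 789 and 764 bp in width, and their part in the shares was not tested. With 2-fold IL-4 responses the medians were 0.12 (0.09 to 0.15, n = 2199) and 0.06 (-0.01 to 0.13, n = 685). At the former 22.4% of sites were higher and 15.1% lower with MCSF, and at the latter 19.1% and 24.8%.

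In the reverse direction, 930 of the 3483 sites higher with MCSF (26.7%) were higher with IL-4 in the DMSO pair, against 14.7% of all sites, and 468 (13.4%) were lower, against 9.51%. Of the 5497 sites lower with MCSF, 734 (13.4%) were higher and 513 (9.33%) lower with IL-4, shares close to those of all sites. Among the 968 sites at which MCSF + IL-4 stood 1.5-fold above every other library on the trend-removed scale, the median log2 ratio of DMSO + IL-4 against DMSO was 0.58, and among the 523 at which it stood below every other it was -0.09. With sites chosen by the mean of the other 5 libraries these medians were 0.45 at the 727 and -0.06 at the 586 sites. They are given as a description, since the rule for standing apart used those libraries too.

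The MCSF and LatA comparisons share no library. The same 1.5-fold call was made at 2645 lower sites, which is 48.1% of the sites lower with MCSF and 52.6% of those lower with LatA, where 15% of all sites were lower with LatA. Of the sites higher with MCSF, 682 (19.6%) were also higher with LatA (23.6% of those, against 8.63% of all sites), and 283 (8.13%) were lower with LatA. A further 313 sites were lower with MCSF and higher with LatA. As with MCSF, sites lower with LatA were wider, at 1141 bp at the median, than sites higher with LatA, at 664 bp.

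Peaks were called in each library by the authors, and 98.7% of the selected sites held a peak in IL-4 and 98.1% in the MCSF library. A peak in both was present at 32547 sites, with a median log2 ratio of 0.01. The 506 sites with a peak in IL-4 only had -1.09 (-1.16 to -1.05), and 450 of them were called lower, whereas the 300 sites with a peak in the MCSF library only had 0.41 (0.32 to 0.48), with 120 called higher and 14 lower. Neither library had a peak at 123 sites. Peaks, and their fold enrichment over a local background, come from the same reads as the ratio that chose the called sites. Their direction at called sites is therefore largely set by that choice, and is given as a description. At sites called higher the median fold enrichment was 7.58 in IL-4 and 12.3 in the MCSF library. At sites called lower it was 7.02 and 5.51, and at sites within 1.5-fold 10.8 and 12.5. Over all selected sites with a peak the median enrichment was 9.86 in IL-4 and 11.5 in the MCSF library, and 12.7 in the LatA library.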

How the data were processed

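The deposited site table gives, for 6 ATAC-seq libraries, a signal per site: the authors counted reads with featureCounts and divided them by library sizes scaled with edgeR's TMM. All values (100%) were whole multiples of 1 read within 0.001, so reads were recovered. The authors trimmed with cutadapt, aligned to mm9 with Bowtie2 (up to 10 alignments per read), removed duplicates with Picard, and called MACS2 peaks per library. The deposited peak lists hold a fold enrichment over background, −log10 p-values and q-values (in −log10 units) and an integer score, of which fold enrichment, −log10 q and position were used. No annotation was used: 9 of 19 autosomes hold sites past the GRCm38 chromosome end.

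Log2 ratios of normalized reads (1 read added) had the median of 100 equal bins of mean signal subtracted, and were called at 1.5-fold. Intervals of ratios are exact Clopper-Pearson (95%), those of medians come from order statistics. A fold against 0 reads used a floor of 3 reads. The main results carry no test. An edgeR quasi-likelihood fit (edgeR 4.0.16, vehicle, IL-4, LatA and MCSF terms, 1 residual degree of freedom, Benjamini-Hochberg adjustment) and DESeq2 1.42.0 size factors were alternatives, with Python 3.11.15, numpy 2.4.6, scipy 1.17.1 and bedtools 2.31.1. Procedures were checked on simulated reads. Sites named are the 10 highest and 10 lowest by ratio among sites under 1000 normalized reads whose interval lay past 1.5-fold, and 5 each way with at least 150, none within 100 kb of another named in its list, and the 3 highest and lowest windows. Runs, nearby windows, means without the MCSF library or by the other 5 libraries, and ranks by signal were chosen after values were seen. Members and lists were chosen with earlier results of these data known. Sites at listed genes and marker loci are not analysed here.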

Additional observations from a re-analysis of the deposited data

How the results depend on the processing

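With 1 library per group no replicate could be left out, and depth limits single sites more than classes of sites. No paired analysis was possible because each group holds 1 library. The numbers of higher and lower sites moved by less than 1.5 times with total reads in sites or DESeq2 size factors as the scale, lowess or the signal of the 2 libraries for the trend, 5 reads added, DMSO + IL-4 or the sum of both IL-4 libraries as the control, and without the sites of at least 1000 normalized reads. With the trend kept they were 15866 and 1676, with a filter of 1.6 16690 and 16049, with a filter of 6.4 503 and 1266, with no filter 141837 and 139992, at 2-fold 831 and 2039, with whole counting intervals 598 and 1635, and by edgeR's test 135 and 428 (3831 and 4388 at an unadjusted p of 0.05). Filters and thresholds differ in how many sites can pass. Of the alternatives chosen after seeing the data, the trend against signal per kb gave 2716 and 4167, the trend against signal and then width 3564 and 4413, sites of up to 1000 bp alone 1919 and 3253 (3002 and 2626 of these sites with the trend of all), and the filter and trend on the 4 libraries outside the pair 3299 and 5439.

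Peaks in IL-4 only or MCSF + IL-4 only were at 1234 and 593 sites with a −log10 q of at least 5. With the trend kept, the median MCSF ratio at sites higher, lower and within 1.5-fold with IL-4 was 0.61, 0.65 and 0.53, so the last turned direction from -0.02, which follows from the shift that the trend holds. With a 2-fold IL-4 response the medians were 0.12, 0.056 and -0.0058, and with width removed the first was 0.045. In windows of 500 kb, 101 were higher and 65 lower, so more were higher than lower, unlike the 58 and 108 of 1 Mb, and the cause was not tested. In the 1 Mb windows these numbers were 46 and 83 with width removed.

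Of the 30 named sites, chr12:5512677-5513780 and chr4:7161588-7162219 reversed against DMSO + IL-4, with log2 ratios of -0.33 and -0.63. No other named site reversed in the 6 alternatives run on them. Against DMSO + IL-4 the 10 highest lay between -0.63 and 2.96, in place of 3.09 to 5.99 against IL-4. Among them chr5:72906153-72907463 (0.38) and chr3:151243542-151244221 (0.57) were no longer higher by 1.5-fold. With width removed 4 of the 30 moved past their counting interval, all strong sites, among them chr6:43678849-43679035 from -2.09 to -1.66. With 5 reads added the 10 highest lay between 2.64 and 4.37 and the 10 lowest between -5.02 and -3.23, and against DMSO + IL-4 the 5 strong lower sites lay between -2.88 and -1.17. By edgeR's adjusted p, 1 of the 10 highest and 9 of the 10 lowest sites passed 0.05, and 2 and 5 of the 5 strong sites each way. Sites at listed genes were not run, since no mm9 annotation was used.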

Other observations

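The X chromosome was outside the rule, and its sites are given as values. The 1865 X sites with a mean signal of at least 3.2, measured against the autosomal trend, had a median log2 ratio of MCSF + IL-4 against IL-4 of -0.69 (95% interval of the median -0.73 to -0.63), with 54.1% of sites lower by 1.5-fold and 3.43% higher. Their median width of 695 bp and density of 8.93 signal per kb were within the range of the autosomal classes. The summed signal over these sites was 17691 in IL-4 and 18498 in the MCSF library, and lay between 17286 and 18498 in all 6 libraries. With LatA the median was -0.62, in DMSO against Untreated -0.30, and in DMSO + IL-4 against IL-4 -0.10.

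By chromosome, the autosomal medians with MCSF lay between -0.06 (chromosome 14, 1482 sites) and 0.11 (chromosome 11, 1834 sites). At chromosome 11, 13.5% of sites were higher and 10.9% lower, whereas 8.64% were higher and 18.4% lower at chromosome 14. Further runs of lower sites lay on chromosome 1, at chr1:84961149-85030575 (8 sites, median -0.97 with MCSF and -0.83 with LatA), chr1:85204150-85269198 (12 sites, -0.84 and -0.49) and chr1:87348011-87391858 (7 sites, -1.38 and -0.52). In DMSO + IL-4 against IL-4 their medians were -0.37, -0.27 and -0.58 in the same order.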
